A study of Mus musculus with 6 samples.

Results

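The miR-29 family was followed in small RNA libraries of the mouse kidney inner medulla, the innermost kidney zone, through which collecting ducts run. Its members were chosen by name from the deposited table, as every arm of miR-29a, miR-29b, miR-29b-1, miR-29b-2 and miR-29c. This gave 7 of 1081 entries: mmu-miR-29a-3p, mmu-miR-29b-3p, mmu-miR-29c-3p, mmu-miR-29a-5p, mmu-miR-29b-1-5p, mmu-miR-29b-2-5p and mmu-miR-29c-5p, written below without the species prefix. DicerAQP2Cre+ mice (3 libraries) lack Dicer1 in cells that express aquaporin-2, and the controls (3 libraries) are described in the labels as control only. All mice were 1 month old, and the series design describes separate animals. Principal cells of the collecting duct use aquaporin-2 as their water channel, so other cells of the inner medulla of DicerAQP2Cre+ mice keep Dicer1. Reads of all these cells are pooled in a library, and fewer principal cells cannot be told apart from less miRNA per cell. The table's columns CK01 to CK03 were read as DicerAQP2Cre+ replicates 1 to 3 from their names, and every direction below rests on that reading.

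Dicer cuts the hairpin precursor of a miRNA into a short duplex, of which one strand, the guide, is kept in an Argonaute protein and pairs with target mRNAs mainly through its seed (bases 2 to 8). The other strand, the passenger, is mostly degraded. Guide and passenger are named here from what is described elsewhere, not from read counts. In the miR-29 family the guide is the 3p strand. It is best known for repressing mRNAs of the extracellular matrix, such as collagens, elastin and fibrillin, and in kidney disease models low miR-29 has been described together with fibrosis. Target mRNAs, like the Dicer1 transcript, were not measured by these libraries.

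The 3 guide strands are shown because they share 1 seed and differ only downstream of it. Mature sequences of all 7 members were taken from RefSeq (GRCm38.p6), 5′ to 3′, with the seed in capitals.
miR-29a-3p: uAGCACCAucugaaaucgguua
miR-29c-3p: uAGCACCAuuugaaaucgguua
miR-29b-3p: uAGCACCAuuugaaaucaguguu
Counting from 1 at the 5′ end, miR-29c-3p differs from miR-29a-3p at 1 base, C10U. miR-29b-3p carries C10U as well, and over the 22 shared positions also G18A, U21G and A22U. The seed AGCACCA was found in 3 of 1679 mature miRNAs of the RefSeq table, and these are the 3 guides. miR-29b-3p ends in AGUGUU, a hexamer described in human cells as a nuclear import signal. This hexamer lies in 0.715% of the 1679 mature miRNAs and ends 2 of them.

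The 5p strands are shown because each comes from 1 hairpin, which also tells the miR-29b hairpins apart.
miR-29a-5p: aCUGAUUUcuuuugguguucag
miR-29c-5p: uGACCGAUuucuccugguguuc
miR-29b-1-5p: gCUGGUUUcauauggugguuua
miR-29b-2-5p: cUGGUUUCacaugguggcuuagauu
Aligned over 21 bases, miR-29b-2-5p starts 1 base further in than miR-29b-1-5p, so their seeds differ, and they carry the substitutions U11C and U19C (positions in miR-29b-1-5p).

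The hairpins lie in pairs, written here with both mature arms in capitals (5p arm first).
Mir29a: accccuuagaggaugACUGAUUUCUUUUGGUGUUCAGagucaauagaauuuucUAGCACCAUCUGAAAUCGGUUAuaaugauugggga
Mir29b-1: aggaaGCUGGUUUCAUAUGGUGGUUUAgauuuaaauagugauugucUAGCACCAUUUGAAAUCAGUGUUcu
Mir29b-2: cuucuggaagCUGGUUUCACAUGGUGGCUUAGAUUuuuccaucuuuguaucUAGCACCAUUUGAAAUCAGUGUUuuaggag
Mir29c: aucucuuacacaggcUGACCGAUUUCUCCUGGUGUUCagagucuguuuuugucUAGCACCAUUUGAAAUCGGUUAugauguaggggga
In GRCm38.p6 Mir29a is at chr6:31062660-31062747 and Mir29b-1 at chr6:31063023-31063093, both on the minus strand with 275 bases between them. Mir29b-1 overlaps the edge of an exon of the non-coding RNA Gm27019. Mir29b-2 is at chr1:195037040-195037120 and Mir29c at chr1:195037547-195037634, both on the plus strand with 426 bases between them. In GENCODE M21 both lie inside exons of the non-coding RNA A330023F24Rik, on the same strand, and opposite exons of Cd46, which encodes a complement regulator. Mir29b-1 and Mir29b-2 give an identical 3p strand, so reads of miR-29b-3p cannot be assigned to either.

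Values are reads divided by 1 size factor per library, called normalized reads. Whole reads per library ranged from 2934851 to 7614853 in DicerAQP2Cre+ samples and from 4924091 to 6780624 in controls. Where an entry had no read in a library, up to 3 reads are allowed by counting error, or 2.22 to 5.88 normalized reads depending on the library. Differences were tested with limma on log2(value + 1) over 461 entries with a mean of at least 5. Calls were made where the p adjusted over all 461 (Benjamini-Hochberg) was under 0.05. Fold changes of entries with few reads depend on the added 1. The 95% intervals of fold changes come from the limma fit and carry the spread between libraries.

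Of the 7 members, 6 passed the filter on low values. miR-29a-3p and miR-29b-2-5p fell, 0 members rose, and the remaining 4 tested were not called. Over all 461 entries limma called 4.99% lower and 3.47% higher. edgeR's quasi-likelihood test, on the recovered reads, called the same 2 members lower and 0 higher, against 4.99% lower and 4.12% higher over all entries. DESeq2 also called these 2 lower and 0 higher, against 6.72% and 6.29% of all 461. It gave no adjusted p for 90 of the 461, among them miR-29b-3p, so these could not be called. All 6 tested members had a log2 fold change below 0 in limma, as did 50.5% of all entries. The 6 tested members had log2 fold changes from -1.54 to -0.14 with a median of -0.93, and the median over all entries was -0.01. In 5 of the 6, every DicerAQP2Cre+ value was below every control value, and 18.0% of all tested entries showed this. The calls depended on single libraries: limma called 0 members without control replicate 2, without control replicate 3 or without DicerAQP2Cre+ replicate 2, where 3, 4 and 4 members had an unadjusted p under 0.05, and 1 member without control replicate 1. edgeR called 0 members in the first 3 of these fits too. Over all entries the count of calls, 39 with every library, was 0, 0, 15 and 26 in these fits. Without control replicate 2 or 3, edgeR's quasi-likelihood test also called 0 entries, and 83 and 96 had an unadjusted limma p under 0.05.

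**Figure D1:**
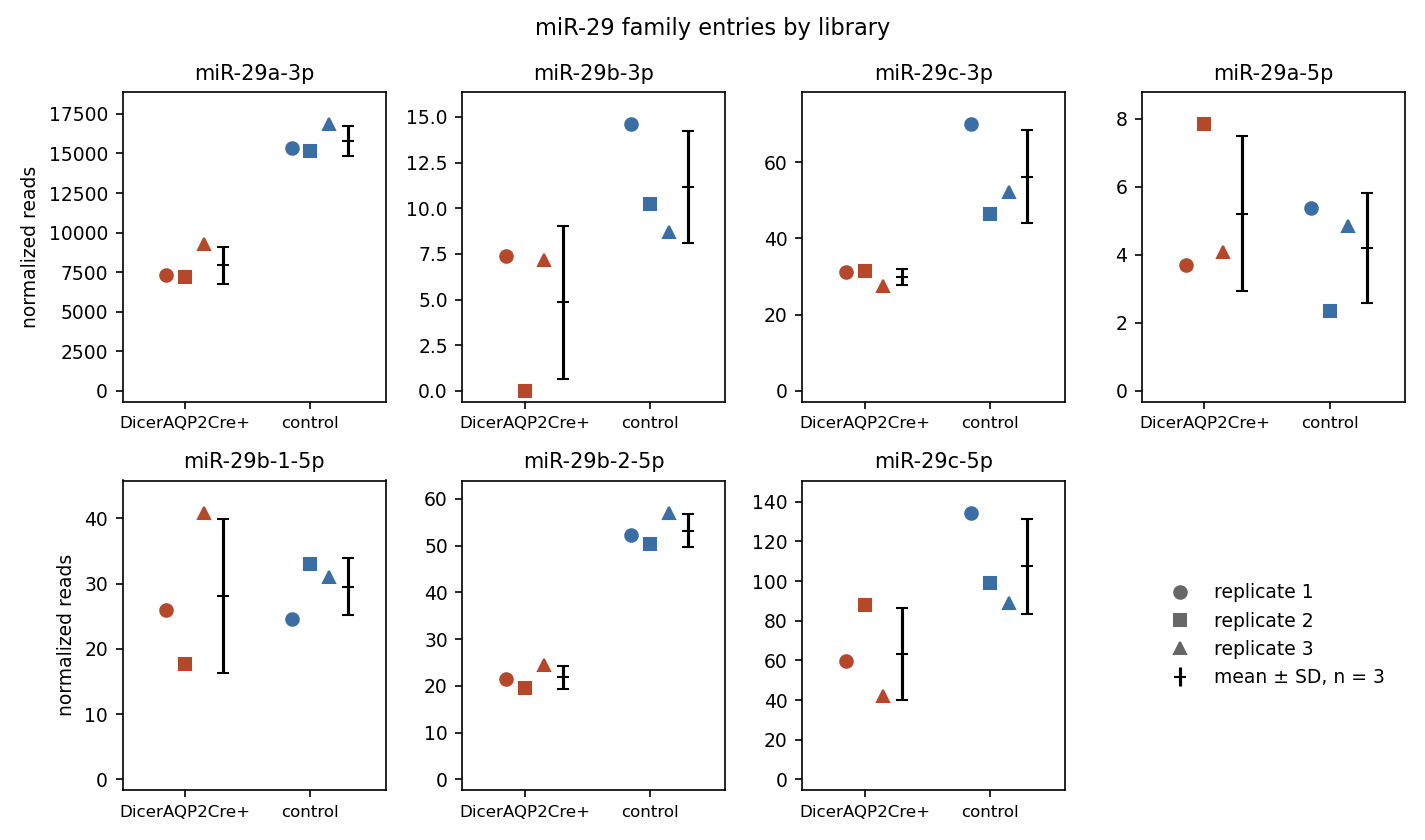
Normalized reads of each miR-29 entry (y axis, linear, a scale per panel) in the 3 DicerAQP2Cre+ libraries and the 3 control libraries; symbols mark replicates and bars the mean ± SD (n = 3). The genotypes separate for 5 entries and overlap for miR-29a-5p and miR-29b-1-5p.

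**Figure D2:**
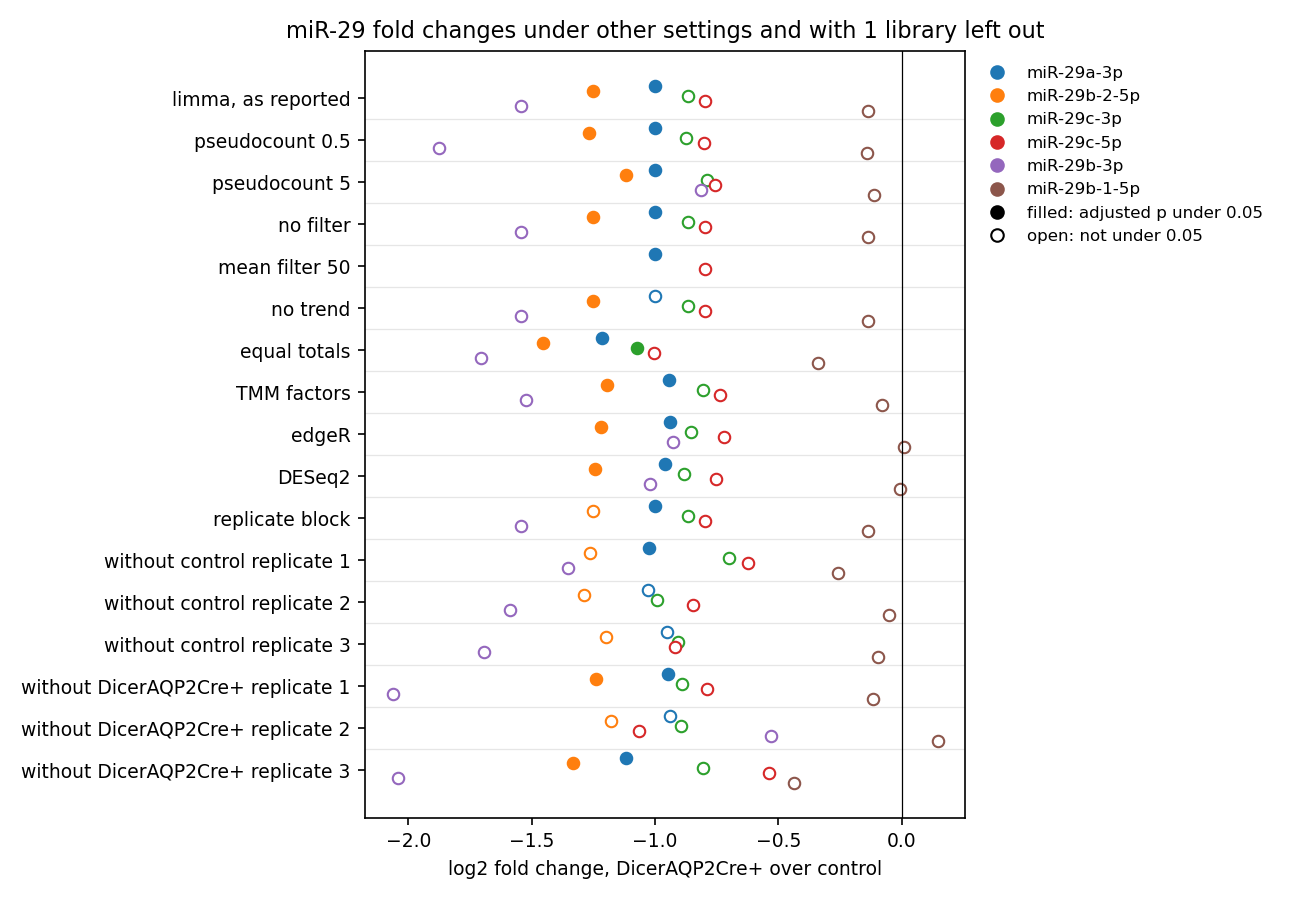
Log2 fold change (x axis, DicerAQP2Cre+ over control) of the 6 tested miR-29 entries under each planned setting other than the looser threshold, and with each library left out (y axis); filled points had an adjusted p under 0.05 in that fit. miR-29a-3p stays between -1.21 and -0.94 and miR-29b-2-5p between -1.46 and -1.12, filled in some fits and open in others, and miR-29b-1-5p is the entry that crosses 0.

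miR-29a-3p, the most abundant member and rank 33 of the 461 entries by mean level, carried nearly all reads as they were assigned to the guides of the family. It had 7315, 7204 and 9256 normalized reads in DicerAQP2Cre+ replicates 1 to 3, against 15313, 15173 and 16857 in control replicates 1 to 3. The genotypes did not overlap, and DicerAQP2Cre+ replicate 3 was the highest of its group. The means were 7925 ± 1154 in DicerAQP2Cre+ samples and 15781 ± 934 in controls (SD, n = 3 each), 1.99-fold lower in DicerAQP2Cre+. In limma the log2 fold change was -1.0 ± 0.19 (adjusted p = 0.0136). Counts behind these values were 3676 to 9888 reads per library in DicerAQP2Cre+ samples and 17418 to 19911 in controls. With 1 library left out the log2 fold change stayed between -1.12 and -0.94. The limma adjusted p was 0.0792 without control replicate 2, 0.0677 without control replicate 3 and 0.0575 without DicerAQP2Cre+ replicate 2. It was under 0.05 when any other library was left out.

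miR-29c-3p, the guide that differs from miR-29a-3p at 1 base, was far lower. It had 31.1, 31.4 and 27.6 normalized reads in DicerAQP2Cre+ replicates 1 to 3, against 69.98, 46.4 and 52.3 in control replicates 1 to 3. The genotypes did not overlap, and control replicate 1 was the highest library. The log2 fold change was -0.86 with a 95% interval from -1.49 to -0.24. It did not pass over all entries in limma (adjusted p = 0.0915). It did pass when libraries were set to equal totals (limma adjusted p = 0.0328, log2 fold change -1.07), a scaling that moved the median of all entries from -0.01 to -0.21.

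The 2 single-base neighbours stood 267 ± 59.5 to 1 in DicerAQP2Cre+ samples and 290 ± 61.3 to 1 in controls (ratio of miR-29a-3p to miR-29c-3p, SD, n = 3 each). Pairs that differ at 1 base were sought among the 916 of 1081 entries matched by name to a RefSeq sequence. Sequences were compared from the 5′ end, and pairs with unmatched entries were not compared. This gave 12 pairs with the higher one at a mean of at least 1000 normalized reads. Of these 12, the ratio of miR-29a-3p to miR-29c-3p was the largest, at 275 from the means over all libraries. The next was 31.4, for miR-181b-5p over miR-181d-5p, and the smallest was 1.27. This comparison was chosen after the values were seen. How mismatched reads were assigned is not given in the sources used here. Small RNA ligation also favours some sequences over others, so levels of different miRNAs are not calibrated against each other, and whether reads of miR-29c-3p were counted as miR-29a-3p was not tested.

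**Figure D3:**
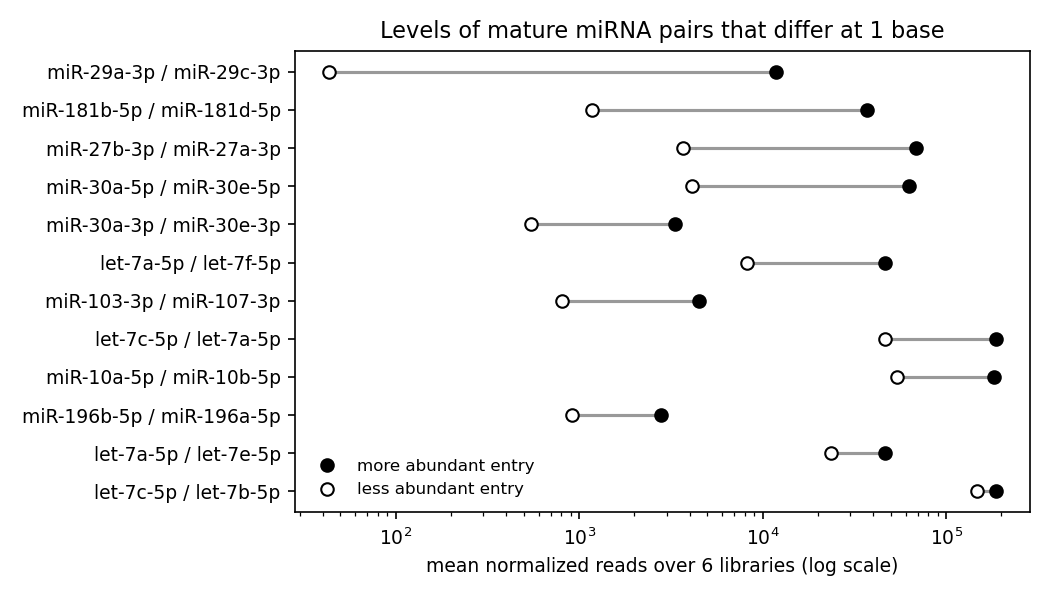
Mean normalized reads over 6 libraries (x axis, log scale) for 12 pairs of mature miRNAs that differ at 1 base. Pairs were sought among entries matched by name to a RefSeq sequence, and the more abundant entry (filled) reaches a mean of 1000. Open points are the less abundant entries. Of these pairs, miR-29a-3p and miR-29c-3p are the furthest apart, with a ratio of 275.

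miR-29b-3p, the guide made by both miR-29b hairpins, was at the edge of detection. It had 7.40, 0 and 7.15 normalized reads in DicerAQP2Cre+ replicates 1 to 3, which is 10, 0 and 7 reads. Control replicates 1 to 3 had 14.6, 10.2 and 8.71, which is 19, 13 and 9 reads. The genotypes did not overlap, but DicerAQP2Cre+ replicate 2, the shallowest library, allows up to 5.88 normalized reads at 0. The log2 fold change of -1.54 had a 95% interval from -3.25 to 0.16 and did not pass in limma (adjusted p = 0.217). Without that library it was -0.53. A difference of miR-29b-3p was thus not established at this depth.

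Summed over the 3 guides, which share a seed, the family had 7353, 7235 and 9291 normalized reads in DicerAQP2Cre+ replicates 1 to 3, against 15397, 15230 and 16918 in control replicates 1 to 3. The mean sum was 7960 ± 1154 in DicerAQP2Cre+ samples and 15848 ± 930 in controls (SD, n = 3 each), a ratio of 0.502. As a share of all reads the guides held 0.139 ± 0.0184% in DicerAQP2Cre+ samples and 0.321 ± 0.0308% in controls, a ratio of 0.432. A share of all reads also depends on the level of the other entries. The most abundant, miR-181a-5p, averaged 3609529 ± 227671 normalized reads in DicerAQP2Cre+ samples and 2383544 ± 347856 in controls (limma adjusted p = 0.0641). It was called higher by edgeR (adjusted p = 0.0431) and by DESeq2 (adjusted p = 0.0283). miR-29a-3p made up 99.6 ± 0.0751% of the sum in DicerAQP2Cre+ samples and 99.6 ± 0.106% in controls. The share of miR-29c-3p was 0.384 ± 0.0759% in DicerAQP2Cre+ samples and 0.356 ± 0.0854% in controls, and that of miR-29b-3p 0.0592 ± 0.0526% and 0.0712 ± 0.0220% in the DicerAQP2Cre+ and control samples. These shares rest on how mismatched reads were assigned between the guides, which is not given in the sources used here. Each share differed by less than the spread between libraries, and the sum restates miR-29a-3p. It has no test of its own, since the members were chosen with results known.

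Among the passenger strands, miR-29b-2-5p fell. It had 21.5, 19.6 and 24.5 normalized reads in DicerAQP2Cre+ replicates 1 to 3, against 52.3, 50.3 and 57.1 in control replicates 1 to 3. The libraries of each genotype lay close together and the genotypes did not overlap. The means were 21.9 ± 2.49 in DicerAQP2Cre+ samples and 53.2 ± 3.49 in controls (SD, n = 3 each), 2.44-fold lower in DicerAQP2Cre+. In limma the log2 fold change was -1.25 ± 0.28 (adjusted p = 0.0172). The counts were 10 to 29 reads per library in DicerAQP2Cre+ samples and 59 to 68 in controls. The limma adjusted p was 0.0588 without control replicate 1, 0.0926 without control replicate 2, 0.0985 without control replicate 3 and 0.0575 without DicerAQP2Cre+ replicate 2.

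miR-29c-5p, the passenger of Mir29c and the most abundant 5p member, had 59.9, 88.2 and 41.9 normalized reads in DicerAQP2Cre+ replicates 1 to 3. Control replicates 1 to 3 had 135, 99.0 and 89.0. The highest DicerAQP2Cre+ library lay just under the lowest control. The log2 fold change of -0.80 had a 95% interval from -1.51 to -0.09 and did not pass over all entries in limma (adjusted p = 0.136).

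miR-29b-1-5p, the passenger of Mir29b-1, overlapped fully between genotypes. It had 25.9, 17.6 and 40.9 normalized reads in DicerAQP2Cre+ replicates 1 to 3, against 24.6, 33.0 and 30.97 in control replicates 1 to 3. DicerAQP2Cre+ replicates 2 and 3 were the lowest and the highest of all libraries. The log2 fold change was -0.14 with a 95% interval from -0.93 to 0.66 (limma adjusted p = 0.814), which leaves room for a change in either direction. Its sign turned in edgeR (0.00899) and without DicerAQP2Cre+ replicate 2 (0.15).

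miR-29a-5p, the passenger of the most abundant member, was below the filter, with 3.70, 7.84 and 4.09 normalized reads in DicerAQP2Cre+ replicates 1 to 3, against 5.38, 2.36 and 4.84 in control replicates 1 to 3. This is 3 to 7 reads per library, and the genotypes overlapped. When every entry was tested without a filter, its log2 fold change was 0.25 (limma adjusted p = 0.848), too few reads to show a difference at this depth.

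**Figure D4:**
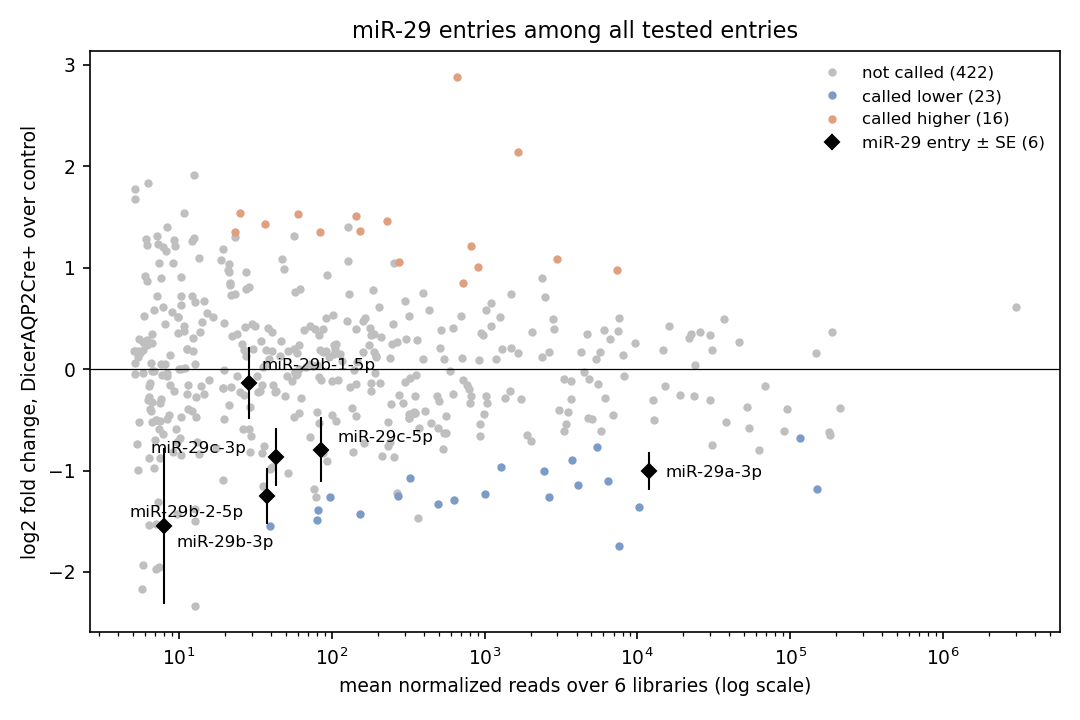
Log2 fold change (y axis, DicerAQP2Cre+ over control) against mean normalized reads (x axis, log scale) for the 461 tested entries, coloured by limma call, with the 6 tested miR-29 entries as diamonds ± SE. All 6 lie below 0, and miR-29a-3p and miR-29b-2-5p are the 2 called lower.

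The paired 5p strands of the miR-29b hairpins were set against each other, a comparison chosen after the values were seen. The log2 ratio of miR-29b-1-5p to miR-29b-2-5p was 0.26, -0.14 and 0.71 in DicerAQP2Cre+ replicates 1 to 3, against -1.06, -0.59 and -0.86 in control replicates 1 to 3. The genotypes did not overlap. The mean difference of 1.11, DicerAQP2Cre+ minus control, gave p = 0.1 in an exact two-sided permutation test, the lowest value possible with 3 libraries each. It stayed between 0.90 and 1.32 with 1 library left out. The 2 strands come from different loci, on chromosomes 6 and 1.

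Whether the arms of a name moved alike was tested on the log2 ratio of 5p to 3p, for 4 ratios. For miR-29a the mean ratio was -10.4 ± 0.614 in DicerAQP2Cre+ samples and -11.6 ± 0.470 in controls (SD, n = 3 each), and the genotypes did not overlap. The difference of 1.25 gave p = 0.1 in the exact two-sided permutation test, and 0.4 after Benjamini-Hochberg adjustment over the 4 ratios. It rests on the 3 to 7 reads of miR-29a-5p per library. miR-29b-1-5p over miR-29b-3p differed by 1.41 (exact p = 0.2, adjusted 0.4). miR-29b-2-5p over miR-29b-3p differed by 0.29 and miR-29c-5p over miR-29c-3p by 0.07, with exact p values of 1 and 0.9 and adjusted values of 1, and both turned sign when single libraries were left out. In Mir29c and miR-29b the 5p strand had more reads than the 3p strand in each library. For Mir29c the ratio of 5p to 3p was 2.09 ± 0.661 in DicerAQP2Cre+ samples and 1.92 ± 0.216 in controls (SD, n = 3 each).

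**Figure D5:**
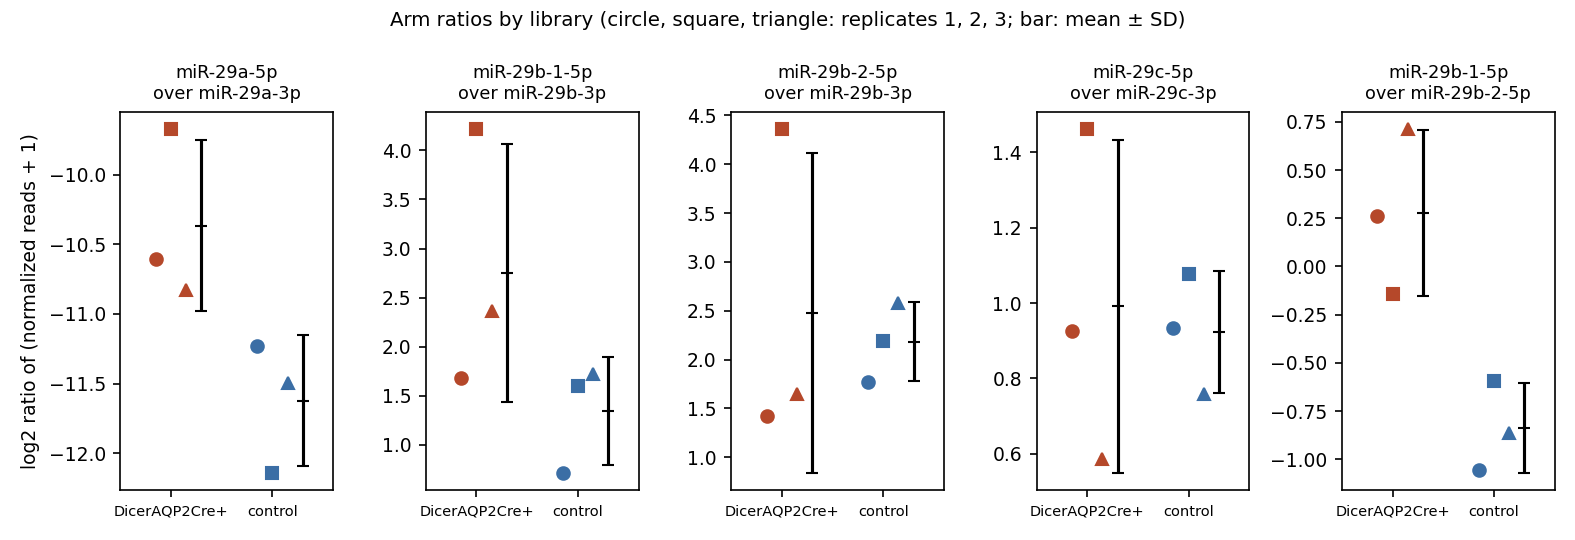
Log2 ratio of (normalized reads + 1) for the 4 ratios of 5p to 3p and for miR-29b-1-5p over miR-29b-2-5p, by library; symbols mark replicates, bars the mean ± SD (n = 3), and each panel has its own y axis. The genotypes separate in the first and the last panel, by 1.25 and 1.11.

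The 5 entries outside the family most like miR-29a-3p were ranked by Pearson's correlation of log2(value + 1) over the 6 libraries, among 257 entries with a mean of at least 50. They were miR-429-3p (0.997), miR-31-5p (0.989), miR-30c-5p (0.985), miR-30d-5p (0.971) and miR-30b-3p (0.967). All 5 were called lower, so the genotype difference is in each correlation, and the points share libraries and size factors. miR-429-3p, a guide of the epithelial miR-200 family, had 523, 560 and 728 normalized reads in DicerAQP2Cre+ replicates 1 to 3, against 1360, 1375 and 1469 in control replicates 1 to 3. Like miR-29a-3p it was highest in replicate 3 of each genotype. Within the family the correlation with miR-29a-3p was 0.994 for miR-29b-2-5p, 0.860 for miR-29c-3p, 0.665 for miR-29b-3p, 0.591 for miR-29c-5p and 0.379 for miR-29b-1-5p.

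Beside the miR-29 family, the miR-30 and miR-200 families had 7 of 11 and 5 of 8 tested entries called lower in limma, with median log2 fold changes of -1.08 and -0.93, against 4.99% called lower over all entries. For miR-30 the count was 5 without control replicate 1, 0 without control replicate 2 or 3, 3 without DicerAQP2Cre+ replicate 2 and 11 without DicerAQP2Cre+ replicate 3. For miR-200 it was 1, 0, 2 and 8 in these fits. The 3 families were not tested against each other. Of 18 tested miRNAs described elsewhere as repressing matrix or TGF-beta pathway genes, 10 fell and 0 rose, with a median log2 fold change of -0.78. These were members of the miR-30 and miR-200 families and miR-26a-5p, so the count in large part repeats the counts of those families. The miR-200 guides are counted again among the epithelial markers below, and the list was chosen with earlier results known. miR-30c-5p, described in rat and mouse heart as acting on connective tissue growth factor, fell by 1.36 ± 0.18, and miR-30e-5p by 1.15 ± 0.18 on the log2 scale (limma adjusted p = 0.00669 and 0.0126). miR-30d-5p fell by 1.19 ± 0.25 (limma adjusted p = 0.0162). let-7c-5p, the most abundant of the list, averaged 211288 ± 14632 normalized reads in DicerAQP2Cre+ samples and 163870 ± 15000 in controls (limma adjusted p = 0.192). The count of 10 was 4 without control replicate 1, 0 without control replicate 2 or 3, 4 without DicerAQP2Cre+ replicate 2, and 3 in a limma fit without a trend.

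Of 12 tested miRNAs described as promoting kidney fibrosis or as raised in fibrotic kidney, 3 rose and 0 fell. Their median log2 fold change was 0.48, and over all entries 3.47% were called higher and 4.99% lower in limma. miR-214-3p, a stromal miRNA raised in injured kidney, had a log2 fold change of 2.14 ± 0.41 and miR-132-3p one of 1.22 ± 0.26 (limma adjusted p = 0.0148 and 0.0164). The third was miR-212-3p, named after its values were seen. miR-34a-5p, a target of p53, averaged 4557 ± 733 normalized reads in DicerAQP2Cre+ samples and 7081 ± 2107 in controls (limma adjusted p = 0.137). The count was 2 without control replicate 1 or DicerAQP2Cre+ replicate 1, and 0 without control replicate 2, control replicate 3 or DicerAQP2Cre+ replicate 2 or in a limma fit without a trend. Without DicerAQP2Cre+ replicate 3 there were 6 higher and 2 lower. DESeq2 called 3 entries of this list higher and 1 lower. So did limma with equal totals, with TMM factors, with a pseudocount of 5, with no filter or at a threshold of 0.1.

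Markers of cell types were compared in the same fit, in which 4.99% of all entries were lower and 3.47% higher. Among 6 epithelial entries, 5 fell, the miR-200 family guides such as miR-200b-3p, miR-429-3p and miR-200a-3p (log2 fold changes -1.10, -1.23 and -0.96), while miR-205-5p averaged 18680 ± 7337 normalized reads in DicerAQP2Cre+ samples and 13337 ± 1618 in controls. The summed level of the 6 ran from 21164 to 37788 in DicerAQP2Cre+ samples and from 29976 to 31902 in controls, which overlap. Of this sum miR-205-5p alone held 13188 to 27012 in DicerAQP2Cre+ samples and 12267 to 15198 in controls. The sum therefore does not show the level of the miR-200 guides. The count of 5 was 1 without control replicate 1, 0 without control replicate 2 or 3, 2 without DicerAQP2Cre+ replicate 2 and 1 without a trend. Of 7 tested stromal entries 2 rose, miR-145a-5p (log2 fold change 1.09) and miR-214-3p, and the log2 fold change of miR-143-3p was 0.31. The 8 stromal entries summed to between 25546 and 36776 in DicerAQP2Cre+ samples and between 21406 and 22899 in controls. The stromal count was 0 without control replicate 2, control replicate 3 or DicerAQP2Cre+ replicate 2 and without a trend, 1 without DicerAQP2Cre+ replicate 1 and 4 without DicerAQP2Cre+ replicate 3.

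Other marker lists gave fewer calls. Of 2 proximal tubule entries tested, miR-194-5p fell by 1.43 while the log2 fold change of miR-192-5p was -0.54 and not called. The summed level of the list's 3 entries ran from 627 to 1131 in DicerAQP2Cre+ samples and from 1277 to 1340 in controls. Whether these inner medulla samples held proximal tubule cells was not tested. miR-194-5p was not called without control replicate 1, 2 or 3, without DicerAQP2Cre+ replicate 2, without a trend or with the replicate number as a block. No entry was called in limma among 2 endothelial, 4 leukocyte and 1 erythroid entries. The log2 fold change of the endothelial miR-126a-3p was -0.15, that of its partner arm miR-126a-5p was -0.25, and the erythroid miR-451a, which matures without Dicer, had one of -0.35. Of the leukocyte entries, miR-150-5p and miR-223-3p had log2 fold changes of 0.34 and 1.17. miR-155-5p, raised in activated leukocytes, had between 112 and 407 normalized reads in DicerAQP2Cre+ samples, against 468 to 551 in controls. The genotypes did not overlap, and its log2 fold change of -1.47 did not pass the threshold in limma (adjusted p = 0.0512). It was called lower by DESeq2 (adjusted p = 0.0353) and in limma with equal totals, with TMM factors, with a pseudocount of 5 or with no filter. miR-155-5p was not called by edgeR (adjusted p = 0.0822), nor in limma without a trend, with a mean filter of 50 or with the replicate block. With 1 library left out, limma called it only without DicerAQP2Cre+ replicate 3. Endothelial entries summed to between 830 and 1245 in DicerAQP2Cre+ samples and between 961 and 1229 in controls, and leukocyte entries to between 16034 and 38511 in DicerAQP2Cre+ samples and between 12703 and 35681 in controls. Nearly all of the leukocyte sum was miR-150-5p, with 15893 to 38097 in DicerAQP2Cre+ samples and 12156 to 35203 in controls. Erythroid entries summed to between 13.7 and 26.6 in DicerAQP2Cre+ samples and between 18.1 and 33.9 in controls. Every entry of the deposited table had reads in at least 1 library, so no marker in it could be at 0 throughout. Of the markers sought, 1 stromal and 1 erythroid entry were absent from it, and whether these lacked reads was not tested. The part of cell composition in the lower miR-29 levels was not tested.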

How the data were processed

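Small RNA was sequenced from 6 inner medulla libraries. The RNA came from RNeasy Micro Kit extractions and TruSeq small-RNA libraries, per the labels' protocols. Per the submitters' processing notes FastQC 0.11.3, DESeq2 and the build mm9 were used; for the aligner, the counter and the miRNA annotation the sources used here give none. The deposited signal values are read counts divided by 1 size factor per library: 100% of values were whole multiples of 1 read within 0.01 read, so whole reads were recovered. Sequences and coordinates are RefSeq's (GRCm38.p6), matched by name for all 7 members.

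limma 3.58.1 (R 4.3.3) with a mean-variance trend and no block was the main test. Alternatives were edgeR 4.0.16, DESeq2 1.42.0 and the settings of the closing section. Members and lists were chosen with earlier results of these data known. Besides the 7 members, the 2 most abundant and the 2 lowest-p tested entries of each list and the 5 entries most like miR-29a-3p were named. The fits were tested on simulated data. Floors cover counting error only.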

Additional observations from a re-analysis of the deposited data

How the results depend on the processing

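The direction of miR-29a-3p, miR-29b-2-5p, miR-29b-3p, miR-29c-3p and miR-29c-5p was the same in every fit that tested them. The count of 2 miR-29 entries called was 1 with a mean filter of 50, which leaves miR-29b-2-5p untested, 1 without a mean-variance trend (miR-29a-3p adjusted p = 0.0518 in limma), 1 with the replicate block, and 0 to 2 with 1 library left out, in limma and, chosen after the data were seen, in edgeR. It was 3 with equal totals and at a threshold of 0.1. Against 39 entries called in all, 18 were called without a trend, 62 with equal totals, 60 by DESeq2, 71 at a threshold of 0.1, and 0 to 105 in limma and 0 to 118 in edgeR with 1 library left out (25 in edgeR without control replicate 1, 14 without DicerAQP2Cre+ replicate 2). With equal totals 48 were lower and 14 higher, against 23 and 16, and the log2 ratio of the summed guides was -1.21 against -0.99. miR-29b-1-5p had a log2 fold change of 0.00899 in edgeR, and between -0.44 and 0.15 in limma with 1 library left out; in edgeR it was 0.0488 without control replicate 2, 0.0447 without control replicate 3, 0.0986 without DicerAQP2Cre+ replicate 1 and 0.18 without DicerAQP2Cre+ replicate 2. With 1 library left out, the difference of the log2 ratio of miR-29b-2-5p to miR-29b-3p lay between -0.65 and 0.82 (-0.31 with a pseudocount of 5), and that of miR-29c-5p to miR-29c-3p between -0.17 and 0.27. Same-numbered libraries did not deviate together (correlations of -0.06, 0.005 and 0.06, against -0.09 to 0.10 for libraries of different numbers). With 3 libraries of each genotype this cannot tell whether the numbers pair the mice. With the replicate block 32 entries were called and miR-29b-2-5p had an adjusted p of 0.0505 in limma. Where no cause is named, the cause was not tested. Depth limits miR-29b-3p and miR-29a-5p.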

Other observations

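Among 35 entries whose mature sequence lies at more than 1 RefSeq locus, miR-29b-3p ranked 24 by level, at a mean of 8.02 normalized reads over all libraries, while miR-181a-5p, let-7c-5p and miR-92a-3p, each with 2 loci, averaged 2996540, 187579 and 180073. miR-29b-3p was also below both of its 5p strands in the means over all libraries, at 8.02 against 28.8 for miR-29b-1-5p and 37.5 for miR-29b-2-5p. The 2 strands of the chromosome 6 pair were set against each other after their values were seen: the log2 ratio of miR-29b-1-5p to miR-29a-3p was -8.16 ± 0.407 in DicerAQP2Cre+ samples and -9.02 ± 0.212 in controls (SD, n = 3 each), without overlap (exact two-sided permutation p = 0.1, the smallest possible).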
